A study of Homo sapiens with 18 samples.

Results

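The 6 genes described here, FOXA1, HOXB13, GATA2, GRHL2, SPDEF and CREB3L4, encode transcription factors that luminal cells of the prostate express. They were followed through every probe set that the annotation assigns to 1 of their symbols alone. That gave 14 probe sets, and the 6 genes stand among 19775 genes with a single-symbol probe set. The arrays hold total RNA of 2 human prostate cancer cell lines, both grown in serum-containing medium. 22Rv1 was derived from a serially passaged xenograft and LNCaP from a lymph node metastasis. The 4 groups of 22Rv1 are a control whose treatment label reads Vehicle, a line carrying a lentiviral full-length ONECUT2 cDNA with a Myc-DDK tag, a scramble shRNA line and an ONECUT2 shRNA line. The 2 groups of LNCaP are a control and a line carrying the same ONECUT2 cDNA vector. Transduced lines were selected on puromycin as stable lines, each group has 3 arrays, and the labels give no batch and name no separate cultures. The p-values therefore reflect only how far these arrays spread, a spread that may be technical, and the number of arrays limits their precision.

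FOXA1 is a forkhead pioneer factor that opens chromatin for nuclear receptors, and GATA2 and HOXB13 bind many of the same enhancers in prostate cells. GRHL2 is a grainyhead factor that keeps up epithelial junction genes. SPDEF, an Ets factor, and CREB3L4, a membrane-bound bZIP factor that is released by proteolysis in the secretory pathway, belong to the programme of secretory luminal cells. ONECUT2, the factor changed in the study, is a cut-homeobox protein of the HNF6 family.

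The windows of 250 bases upstream of 3 members that fell in both overexpression lines are shown because the results turn on these members, whose falls were larger than that of GATA2 in each line. Each line gives the bases before the annotated start, 5′ to 3′ on the gene's strand, from RefSeq on GRCh38.p14. SPDEF lies at chr6:34556330-34556579 (minus strand), CREB3L4 at chr1:153968000-153968249 (plus strand) and FOXA1 at chr14:37595250-37595499 (minus strand).

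SPDEF: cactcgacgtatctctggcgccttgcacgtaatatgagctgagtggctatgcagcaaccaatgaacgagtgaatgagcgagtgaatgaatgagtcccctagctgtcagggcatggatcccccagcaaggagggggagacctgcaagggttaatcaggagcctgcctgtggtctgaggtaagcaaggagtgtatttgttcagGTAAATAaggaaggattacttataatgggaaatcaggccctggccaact

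CREB3L4: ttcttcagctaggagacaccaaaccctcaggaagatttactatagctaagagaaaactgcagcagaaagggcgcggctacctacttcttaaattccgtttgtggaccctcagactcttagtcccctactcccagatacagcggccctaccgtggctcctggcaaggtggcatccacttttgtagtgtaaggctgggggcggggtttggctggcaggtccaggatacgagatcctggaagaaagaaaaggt

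FOXA1: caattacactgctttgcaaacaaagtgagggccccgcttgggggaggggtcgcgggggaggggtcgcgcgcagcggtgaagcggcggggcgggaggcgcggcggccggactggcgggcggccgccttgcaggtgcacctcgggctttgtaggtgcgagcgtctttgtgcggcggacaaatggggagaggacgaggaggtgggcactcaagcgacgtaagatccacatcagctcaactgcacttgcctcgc

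Capitals mark a match to a searched motif. The motifs were ATTGAT for ONECUT factors, GTAAACA and GTAAATA for forkhead factors, AGATAA for GATA factors, CAATAAA for HOXB13, ACCGGTT for grainyhead factors, CACGTCA for CREB3L factors and CCGGAT for SPDEF. Both strands were read, no match overlapped another, and GTAAATA was added after the sequences had been seen. The SPDEF window holds GTAAATA with its first base at position -49 from the start, a motif found in 2.4% of 35097 RefSeq windows of this length. The CREB3L4, FOXA1 and both GATA2 windows hold none of the motifs. Among all windows 5.58% hold the ONECUT motif, 2.98% GTAAACA, 9.17% the GATA motif and 3.67% the HOXB13 motif. The grainyhead motif is in 0.627%, the CREB3L motif in 1.68% and the SPDEF motif in 5.85%. A match is a description of the letters, not a bound site. HOXB13 and GRHL2 have no entry in the promoter table used.

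All values below are log2 expression values from GCRMA, on which 1 unit is a 2-fold difference. Array medians ran from 3.26 to 3.34, and 38.3% to 40.0% of probe sets exceeded 4, the level under which values are treated here as near background. Arrays of 1 group correlated at 0.996 or more, apart from LNCaP overexpression, whose replicate 1 correlated with its group at as little as 0.975. The ONECUT2 probe set with the highest mean over the arrays was higher in overexpression than in control by 0.54 ± 0.16 (SE) in 22Rv1 and 0.66 ± 0.16 in LNCaP. The probe set designed on the ONECUT2 reference transcript was higher by at least 0.38 in 22Rv1 and 2.61 in LNCaP, since it lay under 4 on all arrays of both control groups. On the LNCaP overexpression arrays it read 5.23, 7.17 and 7.43, with replicate 1 the lowest. At the other 3 tested ONECUT2 probe sets replicate 1 was lowest at 1 and highest at 2. Of 4 tested ONECUT2 probe sets, 3 were called higher and 1 lower in 22Rv1, and 3 higher in LNCaP. The arrays labelled ONECUT2 shRNA went against their label at the ONECUT2 probe set with the highest mean. They were higher there than the arrays labelled scramble by 2.05 ± 0.16 and than 22Rv1 control by 0.65 ± 0.16. They read 8.86 ± 0.35 (SD, n = 3), against 8.75 ± 0.14 on the 22Rv1 overexpression arrays. Against scramble 230271_at and 233446_at were also called higher (1.97 and 1.74), and against control 230271_at was (1.37) while 233446_at differed by 0.01. The reference-transcript probe set was called in neither comparison, and read 2.98 ± 0.07 on the ONECUT2 shRNA arrays against 4.38 ± 0.35 on the 22Rv1 overexpression arrays. Directions drawn from these arrays are given by label only. Of 7 luminal markers, 6 read over 4 in each 22Rv1 group and 7 in LNCaP control. TMPRSS2 was the exception, with group means of 3.50 to 3.79 in 22Rv1 against 9.19 in LNCaP control. None of 3 measured basal markers, all keratins, read over 4 in any group. Of 4 leukocyte and endothelial markers only VWF did, in LNCaP control (4.22 ± 0.28, SD, n = 3). Of 3 tested neuroendocrine markers, 1 rose and 1 fell in 22Rv1 overexpression and none was called in LNCaP. Of the 7 luminal markers, 2 rose and 4 fell in each line. Over all genes tested 36.5% rose and 24.3% fell in 22Rv1, and 34.1% and 28.0% in LNCaP.

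**Figure D1:**
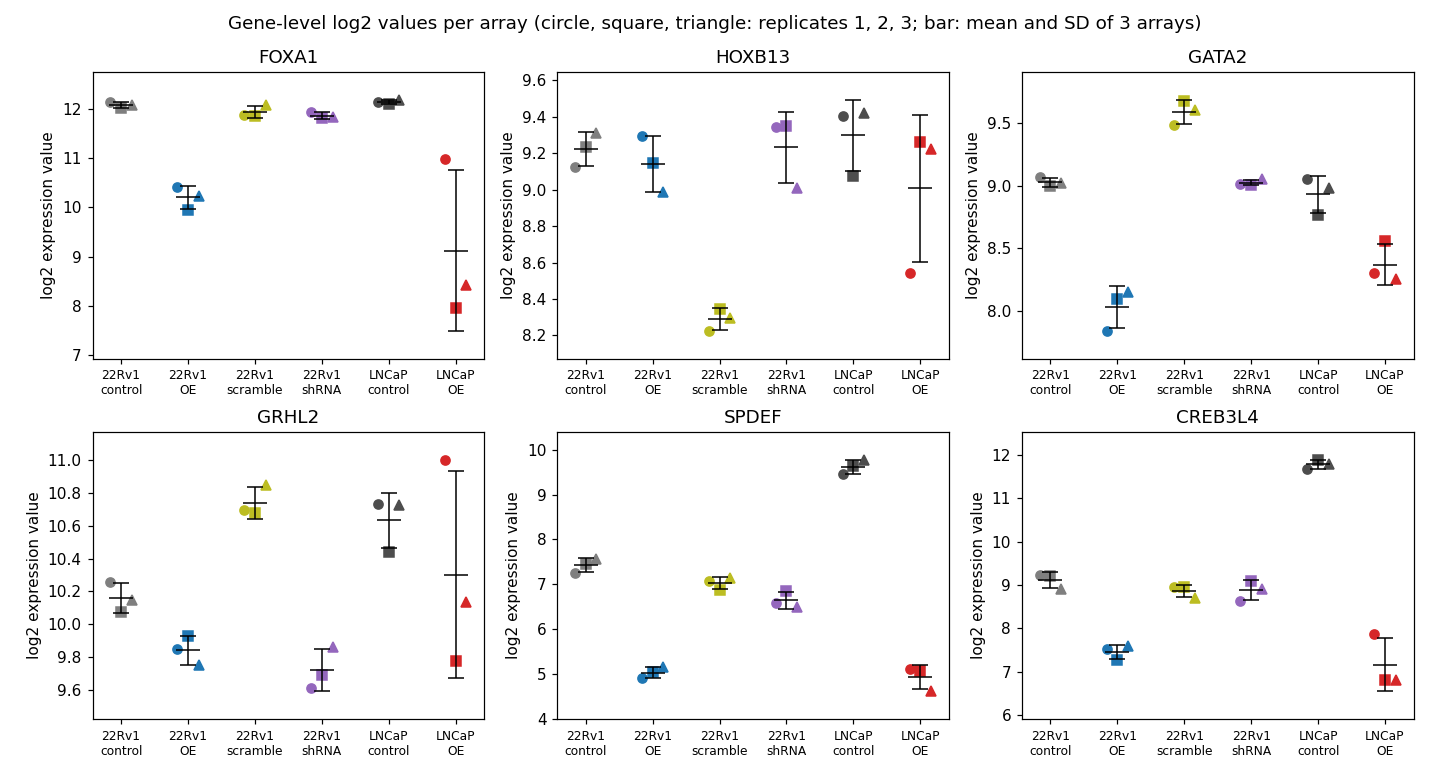
Log2 expression of the 6 factors on each of the 18 arrays, 1 panel a gene with its own vertical scale. The horizontal axis gives the group (OE, overexpression), circles, squares and triangles are replicates 1, 2 and 3, and bars are mean and SD of 3 arrays. SPDEF and CREB3L4 stood highest in LNCaP control (means 9.62 and 11.78) and lowest in the overexpression groups, while HOXB13 was lowest on the scramble arrays (8.29).

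With ONECUT2 overexpressed, 4 of the 6 factors fell in each line, and they were the same 4: SPDEF, CREB3L4, FOXA1 and GATA2. None of the 6 rose. In 22Rv1 the background is broad, since 60.8% of the 12159 genes tested were called at an adjusted p under 0.05 (limma, Benjamini-Hochberg over all genes), 36.5% higher and 24.3% lower. In LNCaP 62.2% were called, 34.1% higher and 28.0% lower. A count of 4 called in 6 lies near the share called in either direction, while all 4 calls were in the lower direction in both lines. The members and the gene lists described below were chosen with earlier results of these data known. Their directions, set beside those of all genes, are therefore a description only. In bulk RNA, fewer cells of a type and less RNA per cell cannot be told apart. The control groups are not labelled as empty-vector lines. Transduction and puromycin selection therefore cannot be told apart from ONECUT2 itself in the overexpression comparisons.

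SPDEF, which drives genes of goblet-like and luminal secretory cells, read 7.26, 7.45 and 7.57 in 22Rv1 control and 4.90, 5.03 and 5.15 in 22Rv1 overexpression. The 2 groups did not overlap. SPDEF fell by 2.40 ± 0.15 (SE), a 5.28-fold difference (adjusted p = 1.63e-09). In LNCaP it read 9.46, 9.64 and 9.77 in control and 5.10, 5.07 and 4.61 in overexpression. Every overexpression array was again below every control, and SPDEF fell by 4.69 ± 0.15, or 25.9-fold (adjusted p = 2.42e-13). The fall was larger in LNCaP, with a LNCaP effect minus 22Rv1 effect of -2.29 ± 0.22 (adjusted p = 5.03e-07). In that comparison of effects 44.7% of genes were called, 18.1% higher and 26.6% lower, and 3 of the 6 members were. The lines differed before overexpression, with SPDEF higher in LNCaP control than in 22Rv1 control by 2.19 ± 0.15 (adjusted p = 2.42e-09). The overexpression groups had means of 5.03 and 4.93, a difference of 0.10 (95% interval -0.22 to 0.42) that was not called.

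SPDEF has 5 single-symbol probe sets, and they differ in brightness. The 3 brightest had the same direction in both lines, and their falls were larger in LNCaP by the test of the difference (42.1% of probe sets were called there). The probe set designed on its reference transcript (220192_x_at) fell by 2.37 ± 0.17 in 22Rv1. In LNCaP all its overexpression readings lay under 4 (3.93, 3.79 and 3.47, against 8.11 to 8.61 in control), so SPDEF was at least 21.2-fold lower there. Another (213441_x_at) fell by 1.81 ± 0.14 and 3.48 ± 0.14. The other two carried little signal. Of these, 214403_x_at lay between 3.58 and 4.17 on all arrays and differed by -0.11 and -0.07 (adjusted p = 0.484 and 0.664), and 213442_x_at never reached 4 and was not tested. The average over all 5 probe sets therefore fell by less, by 1.37 in 22Rv1 and 2.66 in LNCaP. On that average the difference between the lines' effects was -1.29 and that between the control groups 1.24, both still called. Each of these probe sets has the suffix of a design that may also match other transcripts.

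CREB3L4, a factor of the secretory pathway, read 9.24, 9.20 and 8.89 in 22Rv1 control and 7.52, 7.27 and 7.58 with overexpression. It fell by 1.65 ± 0.22, or 3.15-fold (adjusted p = 7.83e-06), with no overlap. In LNCaP control it read 11.67, 11.88 and 11.80, and with overexpression 7.87, 6.80 and 6.81. Overexpression replicate 1 was the highest of its group, yet lay far under every control. The fall was 4.62 ± 0.22, or 24.6-fold (adjusted p = 3.16e-11), and the LNCaP effect minus the 22Rv1 effect was -2.97 ± 0.31 (adjusted p = 1.81e-06). Like SPDEF, CREB3L4 began higher in LNCaP control than in 22Rv1 control, by 2.67 ± 0.22 (adjusted p = 2.25e-08), and its overexpression means of 7.46 and 7.16 were not called different (difference 0.30, 95% interval -0.18 to 0.77). These 2 genes were the only members called between the control groups, where 63.6% of genes were called, 30.2% higher in LNCaP and 33.5% lower.

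FOXA1 was the brightest member by array reading, with 12.14, 12.01 and 12.07 in 22Rv1 control and 10.41, 9.94 and 10.24 in overexpression. It fell by 1.87 ± 0.50, or 3.67-fold (adjusted p = 0.00431). In LNCaP the controls read 12.14, 12.09 and 12.18, and the overexpression arrays 10.99, 7.96 and 8.41. Replicate 1 stood well above the other two, and all 3 lay below every control. The fall was 3.02 ± 0.50, or 8.10-fold (adjusted p = 8.46e-05). Leaving out overexpression replicate 1 gave a fall of 3.95, and leaving out replicate 2 one of 2.44. The model shares its spread over groups, so the SE of 0.50 takes in the SD of 1.63 in LNCaP overexpression, while the SDs in 22Rv1 control and overexpression were 0.06 and 0.24. The difference between the lines was not called (-1.14 ± 0.70, adjusted p = 0.202), but without LNCaP overexpression replicate 1 it was (-2.08, adjusted p = 5.41e-09).

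A second FOXA1 probe set (237086_at), dimmer than the first, had larger fitted falls. Its 22Rv1 control arrays read 7.93, 7.76 and 8.19 and its 22Rv1 overexpression arrays 4.30, 3.99 and 4.29. The fall was 3.77 ± 0.64 (adjusted p = 1.13e-04 over 21233 probe sets, 58.1% of which were called). In LNCaP control it read 9.20, 9.16 and 9.21, and in overexpression 7.20, 3.47 and 3.58. It fell by 4.44 ± 0.64 (adjusted p = 2.25e-05, with 59.0% of probe sets called). Both probe sets gave the same direction in both lines with different sizes. The mean of the pair fell by 2.82 in 22Rv1 and 3.73 in LNCaP.

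GATA2, a zinc finger factor of nuclear receptor enhancers, had smaller falls with tight replicates. In 22Rv1 it read 9.07, 9.00 and 9.02 in control and 7.84, 8.10 and 8.16 with overexpression, a fall of 1.00 ± 0.11, or 1.99-fold (adjusted p = 1.32e-06). In LNCaP it read 9.05, 8.77 and 8.98 in control and 8.30, 8.56 and 8.25 with overexpression. The groups were separate, and GATA2 fell by 0.56 ± 0.11, or 1.47-fold (adjusted p = 4.50e-04). Here the 22Rv1 fall was the larger, by 0.43 ± 0.16 (adjusted p = 0.0376). The other GATA2 probe sets did not pass that test (adjusted p = 0.164 and 0.278). Among 21 alternative settings that call was lost in 12, with adjusted p from 0.0145 to 0.105, including the fits without any 1 of the 22Rv1 controls, 22Rv1 overexpression replicate 1, LNCaP control replicate 2 or 3, or LNCaP overexpression replicate 2. Of its other probe sets, 210358_x_at fell by 1.03 ± 0.15 and 0.65 ± 0.15, while the dim 207954_at was called in 22Rv1 alone (0.42 ± 0.16 lower, adjusted p = 0.0347). Its LNCaP value was -0.10 ± 0.16 (adjusted p = 0.610).

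HOXB13, a homeobox factor of posterior body and prostate identity, did not pass the test in either line at its brighter probe set. It read 9.12, 9.24 and 9.31 in 22Rv1 control and 9.29, 9.15 and 8.98 with overexpression, and these overlapped (-0.08, 95% interval -0.44 to 0.28, adjusted p = 0.698). In LNCaP it read 9.40, 9.07 and 9.42 in control and 8.54, 9.26 and 9.22 with overexpression. Only replicate 1 lay below the controls, and the difference was -0.29 (95% interval -0.65 to 0.07, adjusted p = 0.143), or -0.06 without that array. The second probe set (209844_at) was called lower by a small margin in both lines, by 0.31 ± 0.13 in 22Rv1 (adjusted p = 0.0483) and by 0.32 ± 0.13 in LNCaP (adjusted p = 0.0394). It also read higher in LNCaP control (8.03 to 8.11) than in 22Rv1 control (7.25 to 7.29), by 0.80 ± 0.13 (adjusted p = 3.95e-05, with 64.0% of probe sets called), where the brighter one differed by 0.08. The 2 HOXB13 probe sets thus disagree on the baseline difference between the lines. Their mean was called lower in LNCaP overexpression (-0.31, adjusted p = 0.0346) and higher in LNCaP control than in 22Rv1 control (0.44, adjusted p = 0.00465).

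GRHL2, the grainyhead factor, did not pass the test in either line. In 22Rv1 it read 10.26, 10.08 and 10.15 in control and 9.85, 9.93 and 9.75 with overexpression. All 3 arrays were lower, but the difference of -0.32 ± 0.21 was not called (adjusted p = 0.197). When only these 2 groups entered the model it was (adjusted p = 0.00269). In LNCaP the controls read 10.73, 10.44 and 10.72 and the overexpression arrays 11.00, 9.77 and 10.13, with replicate 1 above all the controls. The difference was -0.33 ± 0.21 (adjusted p = 0.179), and without replicate 1 it was -0.68 and called (adjusted p = 3.81e-05). All LNCaP controls lay above all 22Rv1 controls without a call (0.47 ± 0.21, adjusted p = 0.0570). A model of these 2 groups alone called that difference (adjusted p = 4.62e-04), as did the fit without LNCaP control replicate 2 (0.57, adjusted p = 0.0488). GRHL2 has 1 probe set.

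**Figure D2:**
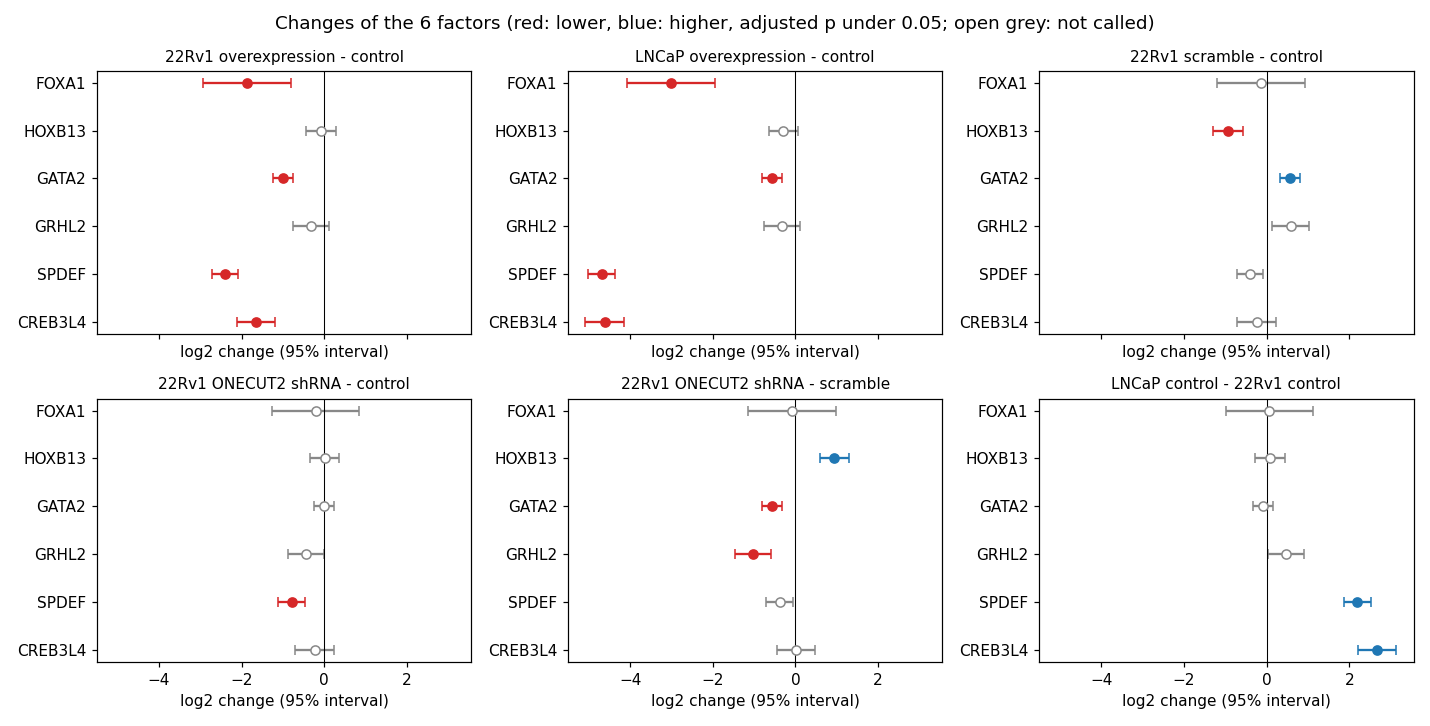
Log2 changes of the 6 factors in 6 comparisons with 95% intervals from the limma model; filled points are called at an adjusted p under 0.05 (red lower, blue higher), open grey points are not. SPDEF, CREB3L4, FOXA1 and GATA2 lie left of 0 in both overexpression panels, while HOXB13 (-0.93) and GATA2 (0.56) moved on the scramble arrays against control.

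**Figure D3:**
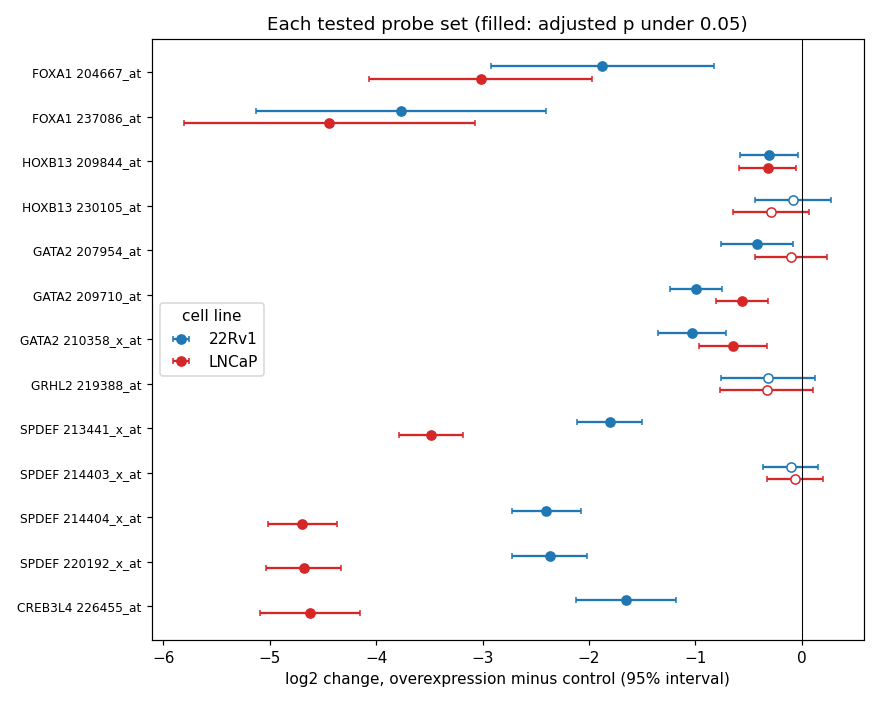
Log2 change of each of the 13 tested probe sets of the 6 factors, overexpression minus control, in 22Rv1 (blue) and LNCaP (red), with 95% intervals; filled points are called. The 3 bright SPDEF probe sets changed more in LNCaP, and 214403_x_at lay near 0 in both lines (-0.11 and -0.07).

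Control readings of RNA quality differed between the 22Rv1 groups. The beta-actin control probe sets read 3′ minus 5′ as 8.06 ± 0.70 (SD, n = 3) in 22Rv1 overexpression against 4.11 ± 0.41 in 22Rv1 control, and its part in the 22Rv1 results was not tested. In LNCaP the same difference was 2.85 ± 0.56 in overexpression and 2.94 ± 0.26 in control, and the falls of SPDEF, CREB3L4, FOXA1 and GATA2 were 4.69, 4.62, 3.02 and 0.56 there, against 2.40, 1.65, 1.87 and 1.00 in 22Rv1. The GAPDH controls read -0.43 ± 0.13 in 22Rv1 overexpression and -0.70 ± 0.09 in 22Rv1 control, and -0.68 ± 0.07 in both LNCaP groups. The 6 stromal markers differed too. Of them 3 read over 4 in 22Rv1 control, 1 in 22Rv1 overexpression and 2 in each LNCaP group, and of 3 tested 1 rose and 1 fell in each line. The log2 of their summed level was 8.11 to 8.30 in 22Rv1 control and 9.79 to 9.89 in 22Rv1 overexpression, and 8.20 to 8.63 and 10.73 to 12.03 in LNCaP. COL1A1, a collagen chain that is also made outside stroma, accounts for most of it, rising by 2.12 ± 0.28 and 3.64 ± 0.28. COL1A2, DCN and DES had group means between 2.42 and 3.83 in these 4 groups. LUM, a stromal proteoglycan, read 5.65 in 22Rv1 control and was lower by at least 1.65 on overexpression, and its LNCaP call lay under 4 on all arrays of both groups. ACTA2, smooth muscle actin, read 4.10 and 3.98 in 22Rv1 and 6.46 and 6.24 in LNCaP, and was called in neither line. The part of stromal signal in the results was not tested.

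On the arrays labelled scramble ONECUT2 itself was called lower than in 22Rv1 control at its probe set with the highest mean (-1.41 ± 0.16, adjusted p = 8.84e-06). The same held at 230271_at (-0.60) and 233446_at (-1.72), while the reference-transcript probe set was not called. The part of this difference in the member values was not tested. The scramble arrays differed from 22Rv1 control at 2 members, where 21.9% of genes were called, 12.5% higher and 9.40% lower. HOXB13 read 8.22, 8.34 and 8.30 there, below all other 15 arrays, and was lower than in control by 0.93 ± 0.17 (adjusted p = 8.34e-04). Its second probe set was lower by 0.49 ± 0.13 (adjusted p = 0.0106), where 22.1% of probe sets were called. GATA2 read 9.48, 9.67 and 9.60, above all other arrays, and was higher than in control by 0.56 ± 0.11 (adjusted p = 0.00221). GRHL2 (10.70, 10.68 and 10.85) lay above all 3 controls without a call (0.58 ± 0.21, adjusted p = 0.0561, or 0.0392 after quantile normalization), and SPDEF (7.08, 6.87 and 7.13) below them (-0.40 ± 0.15, adjusted p = 0.0706). SPDEF was called on the average of its probe sets (-0.20, adjusted p = 0.0431). CREB3L4 and, at its brighter probe set, FOXA1 overlapped the controls. At 237086_at FOXA1 lay below all the controls without a call (-0.55 ± 0.64, adjusted p = 0.611).

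The arrays labelled ONECUT2 shRNA differed from the arrays labelled scramble at 3 members, where 29.5% of genes were called, 13.4% higher and 16.1% lower. HOXB13 read 9.34, 9.35 and 9.01 and was higher by 0.94 ± 0.17 (adjusted p = 5.00e-04), but its second probe set differed by only 0.18 ± 0.13 (adjusted p = 0.324), where 27.0% of probe sets were called. Their mean was called at 0.56. GATA2 read 9.01, 9.01 and 9.05 and was lower by 0.56 ± 0.11 (adjusted p = 0.00141). GRHL2 read 9.61, 9.69 and 9.86 and was lower by 1.02 ± 0.21, or 2.03-fold (adjusted p = 0.00143). SPDEF read 6.59, 6.84 and 6.49, all under the scramble arrays, without a call (-0.38 ± 0.15, adjusted p = 0.0704), but it was called without ONECUT2 shRNA replicate 2 (-0.49, adjusted p = 0.0475). FOXA1 and CREB3L4 differed by -0.08 (95% interval -1.14 to 0.98) and 0.01 (95% interval -0.46 to 0.48). At 237086_at FOXA1 lay below all the scramble arrays without a call (-0.89 ± 0.64, adjusted p = 0.336).

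These 2 comparisons share the scramble arrays, and both share arrays with the comparison of ONECUT2 shRNA against 22Rv1 control. The 22Rv1 controls also serve the comparisons with overexpression and with LNCaP control. Between ONECUT2 shRNA and 22Rv1 control 4.46% of genes were called, 2.35% higher and 2.11% lower, and SPDEF was the only member called, lower by 0.79 ± 0.15 (adjusted p = 0.00728). Its other bright probe sets were lower by 0.51 ± 0.17 and 0.39 ± 0.14 without a call (adjusted p = 0.0883 and 0.133, with 5.22% of probe sets called). HOXB13 and GATA2 differed there by 0.01 ± 0.17 and -0.0034 ± 0.11, and the arrays of both groups overlapped. GRHL2 was under all 3 controls without a call (-0.44 ± 0.21, adjusted p = 0.285). FOXA1 was too, by 0.21 ± 0.50 (adjusted p = 0.890) and at 237086_at by 1.44 ± 0.64 (adjusted p = 0.237).

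Ordered from the highest group mean to the lowest, the groups were compared with their neighbours within the same model. For SPDEF the order was LNCaP control (9.62), 22Rv1 control (7.43), scramble (7.03), ONECUT2 shRNA (6.64), 22Rv1 overexpression (5.03) and LNCaP overexpression (4.93). Its neighbours differed at the first step and between ONECUT2 shRNA and 22Rv1 overexpression (1.61, adjusted p = 1.35e-07). No other step of SPDEF was called, although the arrays of 22Rv1 control, scramble and ONECUT2 shRNA did not overlap between neighbours (adjusted p = 0.0706 and 0.0704). Between ONECUT2 shRNA and 22Rv1 overexpression 62.0% of genes were called. CREB3L4 ran from LNCaP control (11.78) over the 22Rv1 groups labelled control, ONECUT2 shRNA and scramble (9.11, 8.88 and 8.87), with no called step among these, to the overexpression groups, with a step of 1.41 from scramble (adjusted p = 4.27e-05, with 60.4% of genes called). FOXA1, at its brighter probe set, held the 4 groups without the ONECUT2 cDNA between 11.86 and 12.14 with no called step. A called step of 1.66 (adjusted p = 0.00898) led down to 22Rv1 overexpression (10.20). At 237086_at the same 4 groups lay further apart, at 9.19 (LNCaP control), 7.96 (22Rv1 control), 7.41 (scramble) and 6.52 (ONECUT2 shRNA). Neighbours among them were not called different there, with an SE of 0.64 that takes in the SD of 2.13 in LNCaP overexpression. GATA2 had called steps from scramble (9.59) to 22Rv1 control (9.03), from LNCaP control (8.93) to LNCaP overexpression (8.37), and from there to 22Rv1 overexpression (8.03, adjusted p = 0.0146, with 68.7% of genes called). HOXB13 had 1 called step, from LNCaP overexpression (9.01) to scramble (8.29, adjusted p = 0.00115, with 72.7% of genes called). GRHL2 ranged from 10.74 on the scramble arrays to 9.72 on the ONECUT2 shRNA arrays, and no step between neighbours was called, although the arrays of 22Rv1 control and 22Rv1 overexpression did not overlap.

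Profiles were compared by the root mean square difference of the 6 group means, each gene centred on its own mean, over 11545 genes. SPDEF and CREB3L4 were 0.26 apart, nearer to each other than either was to FOXA1 (0.93 and 0.96). Their own departures from a flat profile were 1.59 and 1.50 on the same measure. Beyond the members, the genes nearest to SPDEF were SELENOP, which carries selenium in plasma (0.31), MTARC1, a mitochondrial amidoxime reductase (0.33), and ACP3, prostatic acid phosphatase (0.35). CREB3L4 was nearest to MTARC1 (0.23), the mitotic kinesin KIF20B (0.35) and the homeobox gene MEIS1 (0.37). The genes nearest to FOXA1 were SUV39H2, a histone methyltransferase (0.11), the histone kinase HASPIN (0.12) and MGME1, a mitochondrial nuclease (0.14). For GATA2 they were ATXN7L3B (0.049), SLC33A2 (0.068) and TXNDC16 (0.10), for HOXB13 HCG18 (0.093), INTS14 (0.12) and SLC41A3 (0.13), and for GRHL2 TCEAL1 (0.080), FAM218A (0.088) and MAP3K5 (0.12). These distances rest on 6 means and are a description.

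Most tested secretory genes of prostate epithelium fell in both lines. Of 16 listed, 13 were tested, and in 22Rv1 overexpression 9 fell and none rose (median -1.61, against 0.10 over all genes tested). In LNCaP 12 fell and none rose (median -2.98, against 0.09). Over all genes tested 24.3% fell in 22Rv1 and 28.0% in LNCaP. This list, too, was chosen with earlier results of these data known. The kallikrein genes KLK2 and KLK3, whose products are secreted into seminal fluid, fell by 3.53 ± 0.52 and 3.02 ± 0.67 in 22Rv1, and by 6.94 ± 0.52 and 6.68 ± 0.67 in LNCaP. SLC45A3, the prostein transporter, fell by 1.56 ± 0.21 and 2.69 ± 0.21. TSPAN1, a tetraspanin, fell by 1.61 ± 0.17 and 2.91 ± 0.17. AGR2, a disulfide isomerase of secretory cells, fell in LNCaP (3.72 ± 0.83) and differed by 1.09 ± 0.83 in 22Rv1 (adjusted p = 0.270). The effects differed between the lines (adjusted p = 0.00377). The shared SE takes in the LNCaP overexpression arrays, which ranged from 2.47 to 7.46 for AGR2. In 22Rv1 AGR2 read 7.08 to 7.37 in overexpression and 5.94 to 6.34 in control. KLK2 and KLK3 also spread widely on the LNCaP overexpression arrays (3.18 to 6.30 and 5.08 to 9.13). TMPRSS2 and TRPM8 had means under 4 in 22Rv1 control, and their falls were called in LNCaP alone. TRPM8 passed the filter only through the LNCaP control arrays, so its direction in LNCaP was set by the filter. Without LNCaP overexpression replicate 1 the list again had 12 lower, with a median of -3.70. Between the control groups 9 of the list were higher in LNCaP and 1 was lower, against 30.2% and 33.5% over all genes tested.

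More of the other factors of the members' own families rose than fell. Over all genes tested 36.5% rose and 24.3% fell in 22Rv1 (median 0.10), and 34.1% and 28.0% in LNCaP (median 0.09). Of 30 listed, 22 were tested, and 14 rose and 2 fell in 22Rv1 (median 1.02, or 0.80 with genes whose lower group read under 4 set at their bound), and 14 rose and 5 fell in LNCaP (median 0.97, or 0.71). Of those that rose, HOXB6 in 22Rv1 and ETS2 in LNCaP lay under 4 on every array of both groups. GRHL3, HOXB6, HOXB8 and CREB3L1, all called higher in 22Rv1, lay under 4 on every array of the groups without the ONECUT2 cDNA. They passed the filter only through overexpression arrays, so their rises follow from the filter and lend no weight to the counts. CREB3L1, a relative of CREB3L4, was higher by at least 2.70 in 22Rv1 and was called higher in LNCaP, where its means of 2.41 and 3.63 both lay under 4 and no size is given. GATA6, a GATA factor of endoderm, rose by 1.41 ± 0.14 and 1.04 ± 0.14. HOXB3, HOXB7 and HOXB9, which lie in the gene cluster of HOXB13, rose by 2.07, 2.48 and 2.14 in 22Rv1 and by 1.38, 3.05 and 2.57 in LNCaP. HOXB4 and HOXB5 were not called in either line. The Ets factors EHF and ELF5, relatives of SPDEF, were the 2 that fell in 22Rv1, by 2.00 ± 0.15 and 2.50 ± 0.19. In LNCaP EHF fell by 0.85 ± 0.15, and ELF5 was lower by at least 0.42. ETV1, another Ets factor, fell by 4.50 ± 0.96 in LNCaP (adjusted p = 8.11e-04), where its overexpression arrays ranged from 3.95 to 9.87, and differed by 0.06 ± 0.96 in 22Rv1. GRHL1, a relative of GRHL2, rose by 0.25 ± 0.09 in 22Rv1 and fell by 0.57 ± 0.09 in LNCaP, and these effects differed (adjusted p = 5.91e-05).

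**Figure D4:**
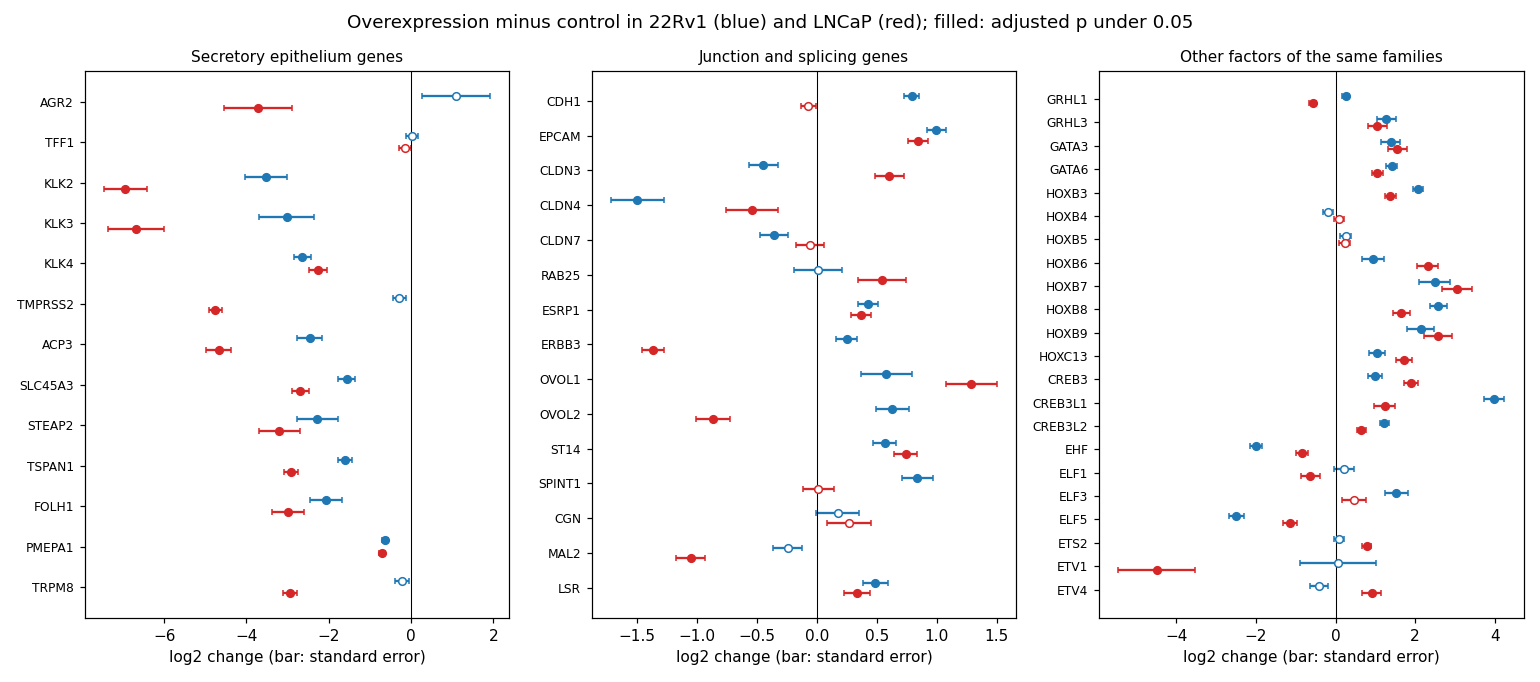
Fitted log2 changes on overexpression, with standard errors, of the tested secretory, junction and splicing, and family genes in 22Rv1 (blue) and LNCaP (red); filled points are called. All called secretory genes lie left of 0, while 14 of 22 family genes were called higher in each line (36.5% and 34.1% over all genes). Some of these family genes passed the filter only through overexpression arrays.

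Junction and splicing genes that grainyhead factors are known to regulate were mixed. Of 15 tested, 9 rose and 3 fell in 22Rv1 (median 0.42), and 7 rose and 4 fell in LNCaP (median 0.27). Over all genes tested 36.5% rose and 24.3% fell in 22Rv1 (median 0.10), and 34.1% and 28.0% in LNCaP (median 0.09). EPCAM, an epithelial adhesion protein, rose by 1.00 ± 0.08 and 0.84 ± 0.08, and ESRP1, an epithelial splicing factor, by 0.42 ± 0.08 and 0.37 ± 0.08. CLDN4, a claudin, fell by 1.50 ± 0.22 and 0.55 ± 0.22. CDH1, which encodes E-cadherin, rose by 0.79 ± 0.06 in 22Rv1 and differed by -0.07 ± 0.06 in LNCaP, a difference between lines of -0.86 ± 0.09 (adjusted p = 1.43e-06). ERBB3, a receptor of the EGFR family, and OVOL2, an epithelial zinc finger factor, rose in 22Rv1 (0.25 and 0.63) and fell in LNCaP (1.37 and 0.87 lower), with adjusted p = 5.80e-08 and 1.61e-05 for the differences. CLDN3 went the other way, with a fall of 0.45 in 22Rv1 and a rise of 0.60 in LNCaP (adjusted p of the difference 1.18e-04).

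Partners of the members and the proteases that release CREB3-type factors moved in both directions. Of 12 tested, 6 rose and 2 fell in 22Rv1 (median 0.59), and 2 rose and 5 fell in LNCaP (median -0.28, or -0.43 with 3 higher and 6 lower without overexpression replicate 1). Over all genes tested 36.5% rose and 24.3% fell in 22Rv1 (median 0.10), and 34.1% and 28.0% in LNCaP (median 0.09). The corepressor TLE1, a known partner of forkhead factors, rose by 2.47 ± 0.22 in 22Rv1 and differed by -0.52 ± 0.22 in LNCaP (adjusted p = 0.0510). The LNCaP effect minus the 22Rv1 effect was -2.99 ± 0.31 (adjusted p = 1.50e-06). MEIS1, a cofactor of HOX proteins, was lower by at least 0.62 in 22Rv1 and by 3.88 ± 0.16 in LNCaP, while its relative MEIS2 rose by at least 1.27 in 22Rv1. In LNCaP MEIS2 was called higher with every array of both groups under 4. MEIS2 passed the filter only through the 22Rv1 overexpression arrays, so its direction in 22Rv1 was set by the filter. MBTPS1, the site-1 protease, rose by 0.86 ± 0.16 in 22Rv1 and fell by 0.77 ± 0.16 in LNCaP (adjusted p of the difference 2.99e-05). MBTPS2, the site-2 protease, fell by 0.82 ± 0.15 and 0.61 ± 0.15.

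In the same lists fewer genes were called between the arrays labelled ONECUT2 shRNA and scramble than on overexpression, as over all genes (29.5% against 60.8% and 62.2%). Of the secretory genes 3 were lower and none higher (median -0.32, against -0.03 over all genes), namely KLK3 (4.41 ± 0.67 lower), ACP3 (1.06 ± 0.31 lower) and TSPAN1 (0.71 ± 0.17 lower). Of the family genes 4 were higher and 5 lower, among them ELF5 (3.16 ± 0.19 lower) and ETS2 (at least 1.07 higher). Of the junction genes 1 was higher and 5 lower, and CLDN4 was lower by 1.46 ± 0.22. Among the partners only TLE1 was called, lower by 1.39 ± 0.22 (adjusted p = 1.75e-04). The scramble arrays themselves stood apart from 22Rv1 control at some of these genes. Means of 22Rv1 control, scramble and ONECUT2 shRNA were 4.62, 6.13 and 4.74 for TLE1, and 7.31, 10.04 and 5.64 for KLK3. Between ONECUT2 shRNA and 22Rv1 control, where 4.46% of all genes were called, no partner or junction gene was called. Of the secretory genes 2 were lower there, and of the family genes 1 was higher and 2 lower.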

How the data were processed

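Total RNA of 18 samples was hybridised to Affymetrix U133 Plus 2.0 arrays with biotin label. The deposited log2 values come from GCRMA, run by the authors, per the submitters' processing notes. Its version is not given in the sources used here, nor is it stated if the arrays were processed jointly. GCRMA includes quantile normalization, so shifts common to most genes can be reduced.

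Of 54675 probe sets, 41097 had 1 symbol in the platform annotation supplied, 1801 had several and 11721 that are no array controls had none. Each gene was read from its probe set with the highest mean. Genes (12159 of 19775) and probe sets (21233) over 4 on at least 3 arrays were tested. limma 3.58.1 under R 4.3.3, with trend and robust options, fitted all 6 groups together (3 arrays each). P-values were Benjamini-Hochberg adjusted within each of 7 comparisons, and those under 0.05 were called. Where the lower group read under 4 on all arrays, a change is a bound against 4, with no size where both groups lie under 4. The model was tested on simulated data. The alternatives covered filters, scaling, probe-set averaging, array weights, a replicate block and leaving out arrays.

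Named were the 6 members, ONECUT2, the 3 nearest genes by profile and members of the lists. Some listed genes are not analysed here. The members and lists were chosen with earlier results of these data known. Lists received counts and medians only.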

Additional observations from a re-analysis of the deposited data

Results flagged for a closer look

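In 3 of the 6 factors the effect of ONECUT2 overexpression differed between LNCaP and 22Rv1 by the test of the difference itself, where 44.7% of the 12159 genes tested were called. A count of 3 in 6 lies near that share. For SPDEF the LNCaP effect minus the 22Rv1 effect was -2.29 ± 0.22 (SE, adjusted p = 5.03e-07), and for CREB3L4 it was -2.97 ± 0.31 (adjusted p = 1.81e-06). For GATA2 it was 0.43 ± 0.16 (adjusted p = 0.0376), that is, a smaller fall in LNCaP. All 21 alternatives left the differences of SPDEF and CREB3L4 called, and 12 of 21 took the call from GATA2. The FOXA1 difference was not called, but without LNCaP overexpression replicate 1 it was at both FOXA1 probe sets (-2.08 and -1.90). SPDEF and CREB3L4 started higher in LNCaP control than in 22Rv1 control, by 2.19 and 2.67. Their overexpression means were not called different between the lines, and no alternative took account of the unequal starting levels.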

How the results depend on the processing

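The falls of SPDEF, CREB3L4, FOXA1 and GATA2 in both overexpression lines kept their direction and their call under every alternative run. The member count was 4 or 5 in both lines under all of them. Of 666 recomputed member changes 611 kept direction and call, 23 gained and 12 lost a call, and 20 turned sign. The 12 losses all concern the GATA2 difference between the lines. One of them came with replicate number as a block (adjusted p = 0.05002), and the block changed no other member call. Deviations of same-numbered arrays correlated at -0.22 to 0.43 over the pairs. No comparison had all its pairs over 0.1, so the numbers were not taken to pair the arrays.

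With array weights, called genes rose to 6195 for ONECUT2 shRNA against scramble (from 3592), 5804 for scramble against control (from 2659, members 4) and 2901 for ONECUT2 shRNA against control (from 542, members 2). With only the groups compared in the model, scramble against control gave 4630 genes and 4 members, and ONECUT2 shRNA against control 1978 genes and 3 members. Without 1 array at a time the latter had 210 to 503 genes. The cause was not tested. Leaving out LNCaP overexpression replicate 1 from the list counts was chosen after seeing the data. Of those counts it moved the stromal genes lower to 2 (from 1), the neuroendocrine genes higher to 2 (from 0) and the stromal difference between lines, lower, to 1 (from 0) by over 1.5 times. Of the tested markers, the stromal LUM and the neuroendocrine CHGB and SCG3 lay under 4 on every LNCaP array. At least 1 of those neuroendocrine calls therefore lay wholly under the level treated as background.

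Sign changes concerned uncalled values. For CREB3L4, ONECUT2 shRNA against scramble, median centring gave -6.2e-05 and leaving out 1 array -0.10 to 0.14. For the GRHL2 difference between lines, quantile normalization gave 0.092 and leaving out 1 array -0.36 to 0.25, and for HOXB13 it was -0.34 to 0.023. For ONECUT2 shRNA against control, GATA2 gave 0.034 under quantile normalization and HOXB13 -0.15 as the mean of its probe sets. Leaving out 1 array gave -0.019 to 0.016 for GATA2 and -0.048 to 0.12 for HOXB13.

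With 3 arrays a group and 1 shared spread, the overexpression changes of GRHL2 and of HOXB13 at its brighter probe set have intervals that include 0. The labels of the shRNA arrays oppose their values at the ONECUT2 probe set with the highest mean. LNCaP overexpression replicate 1 moves the LNCaP values of FOXA1, HOXB13 and GRHL2. SPDEF ended near 5, close to the level treated as background.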
